A study of Mus musculus with 2 samples.

Results

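Genes of the Polycomb and trithorax groups, with the histone demethylases and related methyltransferases that share their substrates, were examined in mouse PS10 cells after knockdown of Gata6-AS. The 53 members were taken by symbol from the table of all genes, where each stood on 1 row among 26127 rows, and 51 of them had a mean of at least 1 RPKM (reads per kilobase of gene and per 1000000 reads). PS10 is a female line of ICR strain and of extraembryonic endoderm stem (XEN) cells, which stand for the primitive endoderm of the blastocyst. One culture received a locked nucleic acid (LNA) oligonucleotide directed against Gata6-AS, a noncoding RNA transcribed opposite the endoderm factor gene Gata6, and the other a control LNA. The sample titles call both reagents siRNA, whereas the treatment protocol calls them LNA, the name used here. Both were transfected with the same lipid reagent, and total RNA was sequenced. Each group had 1 library, of 1.04e+08 reads for control and 1.23e+08 for Gata6-AS LNA, so no test between conditions was possible and every difference compares these 2 libraries.

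Polycomb repressive complexes keep developmental genes silent. PRC2 methylates H3K27, and PRC1 attaches ubiquitin to histone H2A and compacts chromatin, partly by reading the PRC2 mark. Trithorax group proteins oppose them, above all the COMPASS complexes that methylate H3K4, and demethylases remove these marks again. Many subunits come as paralogues that exclude each other from a complex, so the level of each paralogue bears on which complexes a cell can assemble.

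Markers of the labelled cell type were present, and the targeted RNA was lower in the library labelled as its knockdown. All 10 XEN markers were above 1 RPKM in both libraries, while fibroblast markers summed to 0.00541 and 0.0150 RPKM over 7 genes and trophoblast markers to 1.09 and 1.78 RPKM over 6. Of 6 embryonic stem cell markers, Nanog, at 4.61 RPKM in the control and 5.07 RPKM with Gata6-AS LNA, was the only one at a mean of 1 RPKM or more, and Sox2 and Esrrb were listed at 0 in both. Gata6-AS (1010001N08Rik in the table) had 10.1 RPKM in the control library and 5.83 RPKM after knockdown, which is 57.8% of control (exact Clopper-Pearson 95% interval 50.5% to 66.1%). Gata6 stood at 81.9 and 55.7 RPKM, or 68.0% (66.8% to 69.3%). Of the 10 XEN markers 8 were below 0 in their difference of log2(RPKM + 1), as were 42.0% of all genes at a mean of 1 RPKM or more. The median of these markers was -0.39, and their summed level went from 4030 to 3072 RPKM. The transcription factor gene Sox7 was the marker past 1.5-fold, lower with Gata6-AS LNA, and the part of these markers in the differences of the chromatin genes was not tested. Intervals here and below take in counting error alone, and variation between cultures is not covered. Any PCR copies of a molecule left among the reads count as separate reads.

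Between these libraries the chromatin genes differed little. On the log2(RPKM + 1) scale, 0 of 51 members were at least 1.5-fold higher in the Gata6-AS library, where 3.42% of all 10869 genes at a mean of 1 RPKM or more were, and 0 were at least 1.5-fold lower, against 1.95% (5.37% either way). No member passed 2-fold, which 0.331% of all genes did upwards and 0.451% downwards, or 0.782% in all. At a difference of 0.32 or more on this scale, 4 members remained: Ehmt2 and Dpy30 were higher (14.3% of all genes) and Setd1b and Ash1l lower (8.10% of all genes). Together these 4 are 7.84% of the measured members, against 22.4% of all genes past 0.32 either way. The members' differences ran from -0.34 to 0.36 with an interquartile range of 0.25, which is narrower than the 0.33 of all genes. Their median was -0.02, with 25 members above 0 and 26 below, whereas the median of all genes was 0.05 and 58.0% of genes lay above 0. In bulk RNA, fewer cells of a type and less RNA per cell cannot be told apart. Levels were per length, so members could also be compared with each other, and those levels spanned a far wider range than the differences did.

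**Figure D1:**
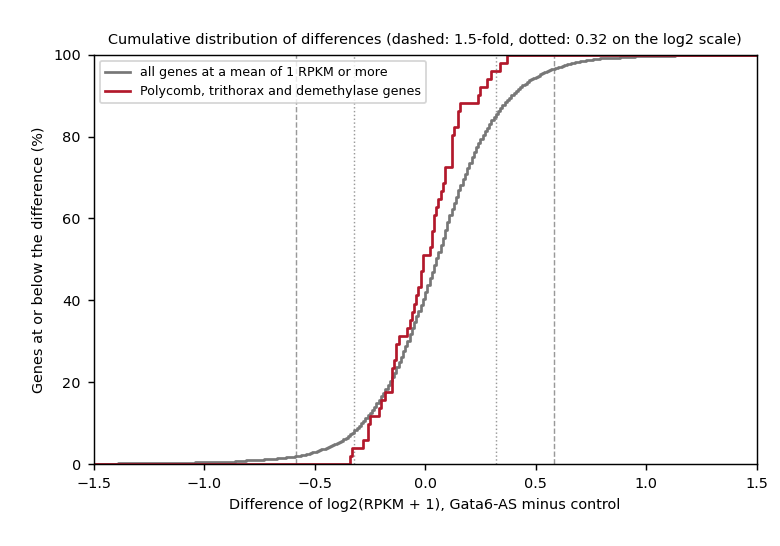
Cumulative share of genes (vertical axis, percent) at or below each difference of log2(RPKM + 1), Gata6-AS minus control (horizontal axis), for the 51 measured members and all 10869 measured genes. The members' curve is the steeper one and lies wholly within the dashed lines at 1.5-fold.

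PRC2 core genes were all well expressed, and their differences were small in either direction. The spans of Ezh2, Suz12, Rbbp4 and Rbbp7 overlap expressed genes on the other strand, and whether reads were counted by strand was not stated. The catalytic subunit gene Ezh2 had 15.9 RPKM with control LNA and 13.5 RPKM with Gata6-AS LNA, or 85.2% of control (82.9% to 87.6%). At least 10194 and 10310 reads stand behind these values, which are given in this order, control first, throughout. Ezh1, which encodes the other catalytic subunit, stood at 8.97 and 8.65 RPKM, or 96.5%. Ezh2 was thus the more abundant in both libraries, 1.77 times Ezh1 in the control and 1.56 times after knockdown. The scaffold gene Suz12 was at 32.8 and 29.4 RPKM (89.8%, from 87.9% to 91.7%), and Eed, whose product binds methylated H3K27, was at 14.6 and 16.3 RPKM (111%, from 104% to 118%). The histone chaperone genes Rbbp4 and Rbbp7, whose products also serve complexes outside PRC2, were at 27.5 and 26.3 RPKM and at 201 and 209.6 RPKM. Rbbp7 was the member with the highest level, at percentile 98.4 of all measured genes. The 6 core genes had a median difference of -0.06, with 2 above 0 and 4 below, where 58.0% of all measured genes were above 0.

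PRC2 accessory genes differed more from each other in level than between the libraries. The Polycomb-like genes, whose products bring PRC2 to CpG-rich DNA, were ordered Mtf2, Phf1, Phf19 in both libraries. Mtf2 stood at 11.1 and 12.1 RPKM and Phf1 at 3.63 and 3.88 RPKM, while Phf19 was far lower at 0.0709 and 0.0808 RPKM (at least 37 and 50 reads). Mtf2 exceeded Phf19 156 times in the control and 149.5 times after knockdown. Jarid2, which links PRC2 to chromatin carrying ubiquitinated H2A, stood at 2.73 and 3.41 RPKM, or 125% of control (119% to 131%), and had the most positive difference of the PRC2 genes (0.24). Aebp2, a cofactor found in the same PRC2 form, was at 7.09 and 6.999 RPKM. Of the 4 measured accessory genes 3 were above 0, as were 58.0% of all measured genes. The median of the 4 was 0.10.

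**Figure D2:**
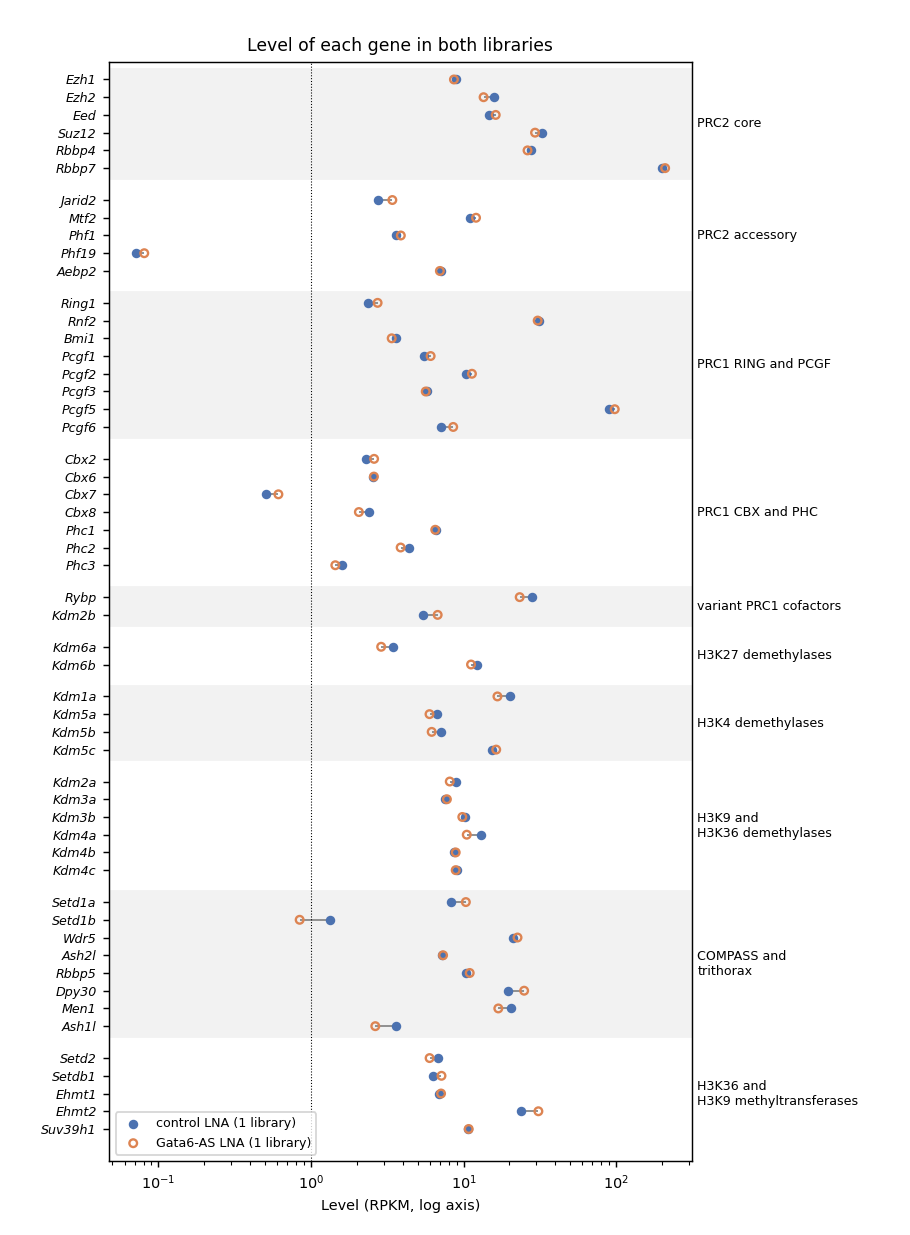
Level of each of the 53 genes (RPKM, log axis) in the control library (filled points) and the Gata6-AS library (open points), by functional group, with a dotted line at 1 RPKM. Points of a gene nearly coincide, whereas genes of a group lie far apart, from Phf19 at 0.0709 RPKM to Rbbp7 at 201 RPKM in the control.

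In PRC1, 1 ligase gene and 1 PCGF gene stood far above their paralogues. Rnf2, which encodes the ubiquitin ligase RING1B, stood at 31.4 and 30.6 RPKM, or 97.5% of control (94.9% to 100.2%), and its paralogue Ring1 at 2.38 and 2.73 RPKM, or 115% (105% to 126%). Rnf2 made up 93.0% and 91.8% of their sum. PCGF subunits decide which form of PRC1 assembles around the ligase. Pcgf5, whose product forms a variant complex without CBX proteins, stood at 89.8 and 98.0 RPKM, or 109% of control (107% to 111%), and at percentile 96.4 of all measured genes. It held 73.5% and 73.7% of the summed level of the 6 PCGF genes. Pcgf2 and Bmi1, the PCGF genes of canonical PRC1, were at 10.4 and 11.4 RPKM and at 3.61 and 3.38 RPKM, so Bmi1 had the lowest level of the 6. Pcgf6, a subunit of the complex with MGA and E2F6, was at 7.12 and 8.56 RPKM, or 120.1% (115% to 126%), the most positive difference of the RING and PCGF genes (0.23). Pcgf1 was at 5.54 and 6.09 RPKM and Pcgf3 at 5.74 and 5.65 RPKM.

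Promoters of 4 genes, a pair of ligase and a pair of chaperone paralogues, are shown because these paralogues differ in level many times over while neither pair differs between the libraries by 1.5-fold. Each run is the 250 bases before the start in RefSeq (GRCm38.p6), 5′ to 3′ on the gene's strand, with CpG dinucleotides in capitals, for Rnf2 (chr1:151500992-151501241, minus strand), Ring1 (chr17:34024681-34024930, minus), Rbbp7 (chrX:162760122-162760371, plus) and Rbbp4 (chr4:129335371-129335620, minus).
Rnf2: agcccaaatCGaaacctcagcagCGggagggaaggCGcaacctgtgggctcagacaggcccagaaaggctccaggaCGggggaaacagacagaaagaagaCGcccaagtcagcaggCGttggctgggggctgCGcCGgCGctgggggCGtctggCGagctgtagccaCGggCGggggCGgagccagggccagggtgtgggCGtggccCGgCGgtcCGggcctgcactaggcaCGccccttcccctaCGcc
Ring1: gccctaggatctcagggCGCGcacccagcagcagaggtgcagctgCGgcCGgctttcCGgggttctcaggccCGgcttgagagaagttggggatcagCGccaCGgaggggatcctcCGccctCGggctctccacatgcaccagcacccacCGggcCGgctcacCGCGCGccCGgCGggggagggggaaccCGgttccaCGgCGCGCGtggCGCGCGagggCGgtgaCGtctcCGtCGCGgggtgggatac
Rbbp7: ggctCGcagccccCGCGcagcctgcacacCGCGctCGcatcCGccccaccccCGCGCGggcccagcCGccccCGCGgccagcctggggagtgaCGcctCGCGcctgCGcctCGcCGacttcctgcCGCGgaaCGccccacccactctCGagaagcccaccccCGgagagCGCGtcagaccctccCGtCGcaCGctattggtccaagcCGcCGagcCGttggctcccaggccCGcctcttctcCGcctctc
Rbbp4: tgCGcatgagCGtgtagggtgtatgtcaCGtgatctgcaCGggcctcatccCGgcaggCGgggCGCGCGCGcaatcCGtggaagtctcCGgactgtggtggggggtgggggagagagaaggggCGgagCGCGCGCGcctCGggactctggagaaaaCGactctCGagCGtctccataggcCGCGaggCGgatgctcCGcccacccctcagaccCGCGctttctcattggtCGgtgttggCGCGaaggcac
These windows held 20, 30, 34 and 30 CpG dinucleotides. The Ring1 window held more than that of Rnf2, the more abundant ligase gene, and the Rbbp windows differed by 4. Of the 53 members, 42 had a window in the table, 63 windows in all, running from 250 bases before to 50 after a start. Their median CpG count was 24.0, against 13.0 over 21263 windows of protein-coding genes, and 79.4% held at least 15, against 46.8%. The letters GGGCGG, on either strand, occurred in 68.3% of the members' windows and 46.2% of all, CCAAT in 41.3% and 38.2%, and TATAAA in 1.59% and 12.6%. CACGTG occurred in 17.5% and 7.84%. AGATAA, which contains the core read by GATA factors, occurred in 3.17% and 9.65% of windows, which is 2 of the members' 63. The median GC content was 64.3% in the members' windows and 56.3% in all, and the part of base content in these shares was not tested. A match is a description of the letters, and windows of a gene can overlap.

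CBX and PHC genes, which complete canonical PRC1, had a median level of 2.51 RPKM over the 6 measured, against 6.83 RPKM for the 8 RING and PCGF genes. CBX proteins bind methylated H3K27 through their chromodomain. Cbx6 stood at 2.54 and 2.58 RPKM, Cbx8 at 2.38 and 2.06 RPKM (86.5% of control, 78.8% to 94.8%) and Cbx2 at 2.31 and 2.59 RPKM (112%, 104% to 122%). Cbx7 was at 0.510 and 0.612 RPKM, below the mean of 1 RPKM needed for the counts, with an interval from 78.7% to 185% of control. The PHC genes, whose products link PRC1 complexes into larger assemblies, were ordered Phc1 (6.63 and 6.52 RPKM), Phc2 (4.42 and 3.87 RPKM) and Phc3 (1.59 and 1.44 RPKM). Of these 6 measured genes 4 were below 0, as were 42.0% of all measured genes. The median of the 6 was -0.05. Cbx2 and Cbx8 lie beside each other on chromosome 11 (mm9, 118884276 to 118892584 and 118897619 to 118902283) on opposite strands, and differed in opposite directions, 0.12 and -0.14.

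The 2 members grouped as cofactors of variant PRC1 lay on opposite sides of 0. Further cofactors of this kind are among the 20 other Polycomb genes measured, of which 8 were above 0 and 12 below. Among all measured genes 58.0% were above 0. Rybp, which stimulates the ligase in place of CBX proteins, stood at 28.3 and 23.3 RPKM, or 82.6% of control (79.8% to 85.5%, difference -0.27). Kdm2b, which recruits variant PRC1 to unmethylated CpG-rich DNA and removes H3K36 methylation, stood at 5.44 and 6.77 RPKM, or 124% (121% to 128%, difference 0.27). The span of Kdm2b overlaps the expressed gene Orai1 on the other strand, and whether reads were counted by strand was not stated. Its paralogue Kdm2a was at 8.99 and 8.12 RPKM, or 90.4%, so the share of Kdm2b in their sum was 37.7% in the control and 45.4% after knockdown. That shift of 7.74 percentage points was the widest in the 13 paralogue families examined, though a shift in points depends on the starting share. As a ratio, Kdm2a to Kdm2b went from 1.65 to 1.20, whereas Setd1a to Setd1b went from 6.20 to 12.3.

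**Figure D3:**
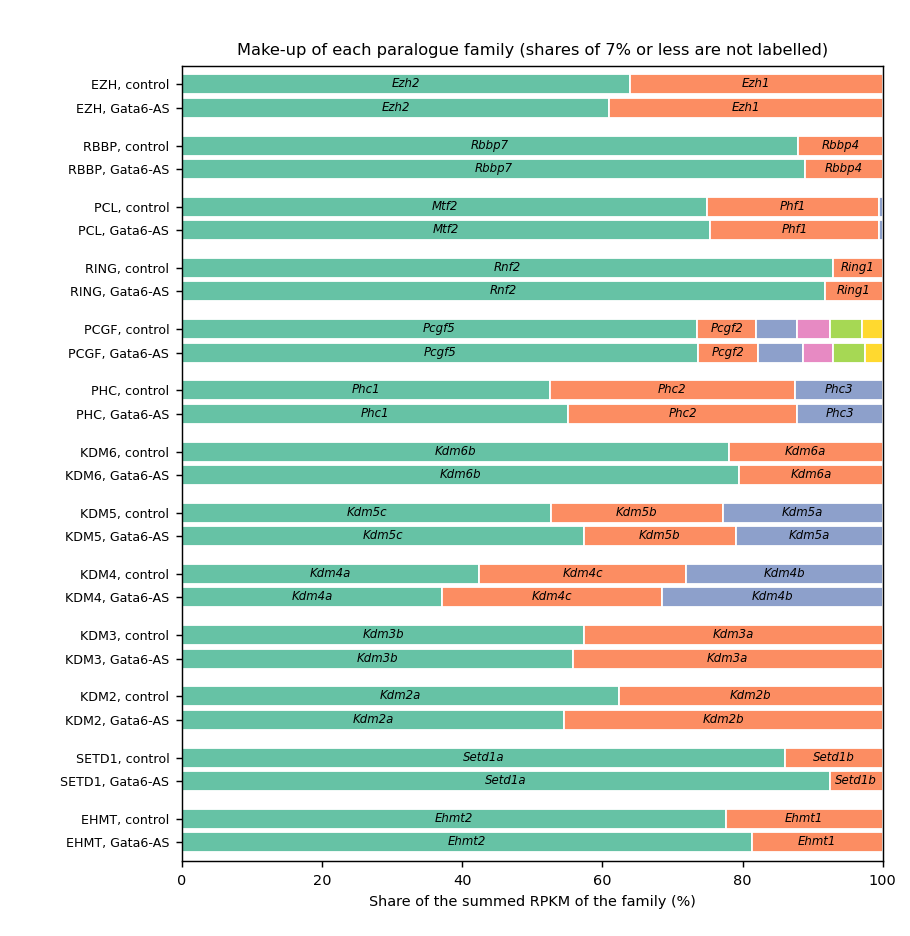
Share of each paralogue in the summed RPKM of its family (horizontal axis, percent), with the control library above the Gata6-AS library in each of 13 families. The leading paralogue was the same in both libraries in every family shown.

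H3K27 demethylase genes, the direct opponents of PRC2, were both below 0, as were 42.0% of all measured genes. Their differences, -0.20 for Kdm6a and -0.13 for Kdm6b, lie at percentiles 16.5 and 24.1 of all measured genes. Kdm6a, an X-linked gene known to escape X inactivation, stood at 3.46 and 2.88 RPKM, or 83.3% of control (79.1% to 87.7%). Kdm6b, its inducible paralogue, stood at 12.3 and 11.2 RPKM, or 91.0% (88.4% to 93.7%). Kdm6b held 78.0% and 79.5% of their sum. The span of Kdm6b overlaps the expressed gene 1700064E03Rik on the other strand.

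Of the 4 H3K4 demethylase members 3 were below 0, as were 42.0% of all measured genes. Kdm1a, the flavin-dependent demethylase that acts with CoREST, stood at 20.2 and 16.7 RPKM, or 82.7% of control (80.5% to 84.9%). Kdm5a and Kdm5b were at 6.67 and 5.98 RPKM (89.7%) and at 7.14 and 6.18 RPKM (86.6%). Kdm5c, X-linked and another gene known to escape X inactivation, was the exception, at 15.4 and 16.4 RPKM or 106% (104% to 109%). Its share of the 3 KDM5 genes was 52.7% in the control and 57.4% after knockdown. The span of Kdm1a overlaps Luzp1 on the other strand, and that of Kdm5a overlaps Ccdc77.

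Demethylase genes for H3K9 and H3K36 showed 1 member apart from the rest. Kdm4a stood at 13.1 and 10.5 RPKM, or 80.4% of control (77.9% to 83.0%), the lowest relative level among the 13 Kdm members. Its paralogues, with overlapping substrates, were nearer to control: Kdm4b was at 8.62 and 8.88 RPKM (103%) and Kdm4c at 9.07 and 8.89 RPKM (97.9%). Kdm3a and Kdm3b, which act on H3K9, were at 7.58 and 7.78 RPKM and at 10.2 and 9.82 RPKM. Over these 13 genes the median difference was -0.13, with 4 above 0 and 9 below, where 58.0% of all measured genes were above 0. The median of all genes was 0.05, and whether these genes stand apart from it was not tested.

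COMPASS and trithorax genes had the widest range of differences of the 10 groups, from -0.34 to 0.34. The catalytic paralogues of the SET1 complex went opposite ways. Setd1a (chr7:134920184-134943636 in mm9) stood at 8.28 and 10.4 RPKM, or 125% of control (121% to 129%). Setd1b (chr5:123592202-123617444) stood at 1.34 and 0.843 RPKM, or 63.1% (58.3% to 68.2%), which rests on 1505 and 1127 reads or more. Setd1a was 6.20 times Setd1b in the control and 12.3 times after knockdown. On the log2(RPKM + 1) scale, which understates differences of low genes, Setd1b was at -0.34, and with a pseudocount of 0.1 RPKM it was the only member past 1.5-fold. Ash1l (chr3:88769734-88883295), a trithorax group methyltransferase of H3K36, stood at 3.59 and 2.64 RPKM, or 73.5% (70.3% to 76.8%, difference -0.34). Setd1b has a log2 difference of -0.77 (p = 0.0333) and Ash1l of -0.49 (p = 0.0701) in the authors' deposited table, whose test is not named. They were the only members in the authors' deposited table, 3.92% of those measured, against 11.9% of all measured genes. The annotated span of Setd1a overlaps Hsd3b7 and that of Ash1l overlaps Gon4l on the same strand, so shared reads cannot be assigned.

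Shared COMPASS subunits differed less, apart from Dpy30. Dpy30 (chr17:74698814-74723284), by protein size the smallest of the core subunits, stood at 19.5 and 24.96 RPKM, or 128% of control (121% to 135%, difference 0.34). Wdr5 was at 21.2 and 22.6 RPKM, Rbbp5 at 10.4 and 11.0 RPKM and Ash2l at 7.21 and 7.34 RPKM, from 102% to 106% of control. Men1, which encodes menin, the subunit that tethers the KMT2A and KMT2B complexes, stood at 20.4 and 16.9 RPKM, or 83.0% (80.3% to 85.7%). Of the 8 genes 5 were above 0, as were 58.0% of all measured genes. The median of the 8 was 0.04.

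H3K9 methyltransferase genes had the member with the most positive difference. Ehmt2 (chr17:35035414-35050997), which encodes the H3K9 methyltransferase G9a, stood at 23.8 and 30.9 RPKM, or 129.8% of control (127% to 133%, difference 0.36), which rests on 10055 and 15492 reads or more. This lies at percentile 88.6 of the differences of all measured genes. Its partner Ehmt1 was at 6.87 and 7.12 RPKM, or 104%, so Ehmt2 made up 77.6% and 81.3% of the pair. Setdb1, the H3K9 methyltransferase recruited by TRIM28, was at 6.33 and 7.17 RPKM (113%, 109% to 118%), and Suv39h1, which acts at pericentromeric chromatin, at 10.6 and 10.8 RPKM (102%). Setd2, which trimethylates H3K36 behind RNA polymerase, was at 6.77 and 5.99 RPKM (88.5%, 85.8% to 91.4%).

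**Figure D4:**
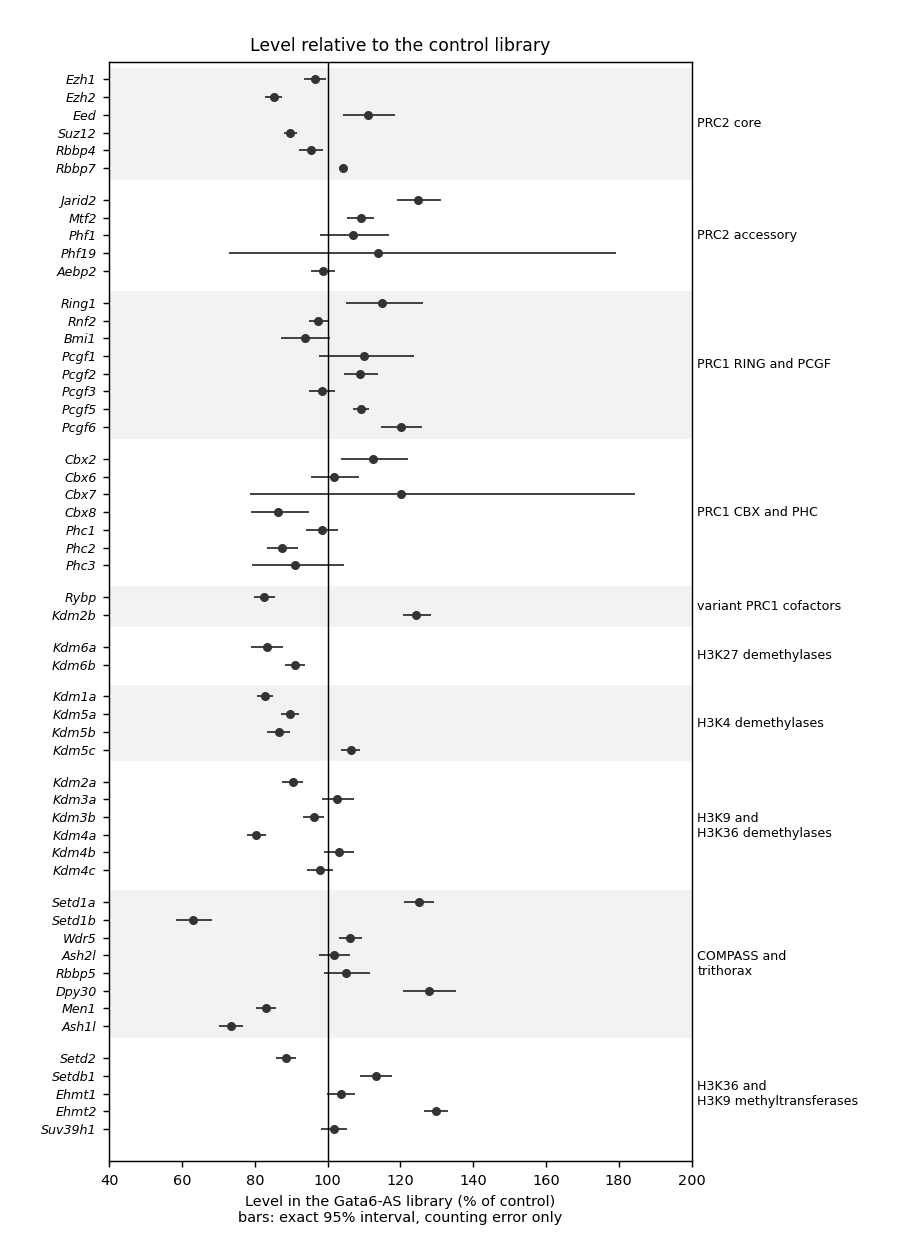
Level of each gene in the Gata6-AS library as a percent of control (horizontal axis), with exact 95% intervals that cover counting error only, by functional group. Ehmt2, Dpy30, Setd1a, Jarid2 and Kdm2b lie from 124% to 129.8%, and Setd1b and Ash1l at 63.1% and 73.5%.

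Longer transcripts had lower differences, over all genes and over the members. The length used is the shortest that turns both RPKM values of a gene into whole reads, so the true length may be a multiple of it. Over all genes, those with a least length up to 3000 bp had a median difference of 0.08 (5397 genes), those up to 6000 bp 0.03, those up to 10000 bp -0.01 and longer ones -0.05 (347 genes). The members were longer, with a median of 5263 bp against 3019.5 bp, and their medians in the same classes were 0.07 (10 members), 0.02 (20), -0.03 (16) and -0.15 (5). Spearman's rho between length and difference was -0.31 across the 51 members and -0.14 across 10868 genes, points that share both libraries and are not independent replicates. The 5 longest members were Kdm2b, Kdm5a, Setd1b, Ash1l and Setd2, of which only Kdm2b was above 0. With each gene set against the median of its length class, the members' median was -0.01, with 19 above 0 and 32 below. The part of length in the differences of single members was not tested.

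**Figure D5:**
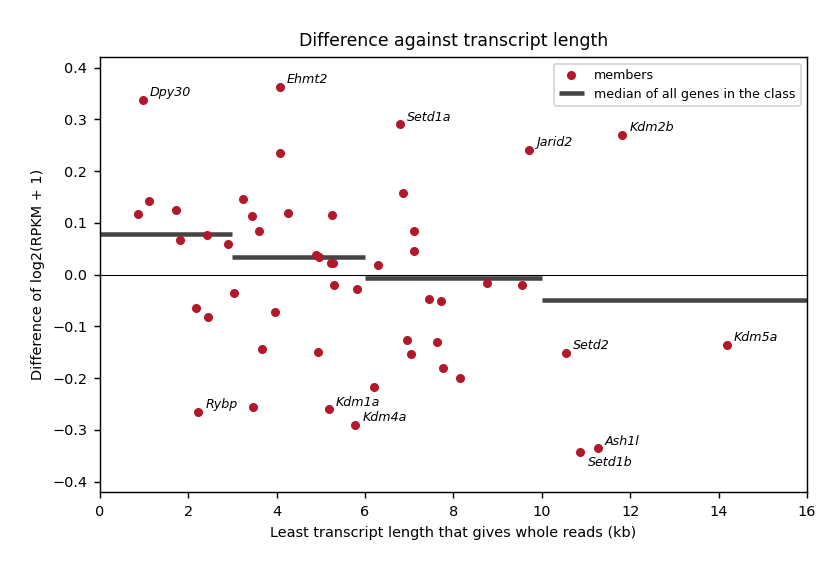
Difference of log2(RPKM + 1) of each measured member (points, vertical axis) against the least transcript length that gives whole reads in both libraries (horizontal axis, kb), with the median of all genes in 4 length classes as bars. The bars step down from 0.08 to -0.05, and members lie on both sides of them in every class.

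The 4 X-linked members, Rbbp7, Kdm5c, Suv39h1 and Kdm6a, had differences of 0.06, 0.08, 0.02 and -0.20, a median of 0.04, which is that of the 378 measured X-linked genes (0.04). An expressed gene lies across 11 of the 51 measured members (21.6%) on the other strand, against 22.6% of all measured genes. The members are Ezh2, Suz12, Rbbp4, Rbbp7, Mtf2, Kdm2b, Kdm6b, Kdm1a, Kdm5a, Setdb1 and Suv39h1.

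In 5 lists of related genes outside the members, 3 of 76 measured genes (3.95%) passed 1.5-fold, against 5.37% of all genes. Among 22 other Polycomb genes 20 were measured and 0 passed 1.5-fold, with a median of -0.03. Among 20 other trithorax and COMPASS genes, 1 was at least 1.5-fold higher and 1 lower. The lower was Kmt2c, listed as Mll3, an H3K4 methyltransferase of enhancers, at 9.30 and 4.90 RPKM, or 52.7% of control, and the higher was Smarca4, the ATPase of BAF chromatin remodellers, at 12.4 and 22.1 RPKM, or 178%. The related KMT2 genes did not share that distance from control: Kmt2a was at 80.8%, Kmt2b at 101% and Kmt2d at 96.4%. None of 10 other demethylase and partner genes passed. Among 19 other histone methyltransferases Setd6 was higher, at 4.48 and 7.92 RPKM or 177%, and none was lower. The 7 heterochromatin readers had 5 below 0, a median of -0.12 and none past 1.5-fold, where 42.0% of all measured genes were below 0.

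Classical Polycomb targets were mostly at or near 0 in both libraries. Of 39 Hox genes, 17 were listed at 0 in both and all 39 together summed to 5.10 and 5.56 RPKM. Of 30 other target genes 10 were listed at 0 in both and 2 were measured. Cdkn2a, which encodes cell cycle inhibitors and is a long-known target of BMI1, stood at 12.7 and 19.5 RPKM, or 154% of control (difference 0.59), just past 1.5-fold, while its neighbour Cdkn2b was at 2.72 and 2.35 RPKM. Of 17 S phase genes, which are markers of proliferation, 10 were above 0 and 7 below, with a median of 0.04. Only Mcm7 among them was past 1.5-fold (31.4 and 48.3 RPKM). Over all measured genes 5.37% were past 1.5-fold either way and 58.0% were above 0.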

How the data were processed

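Both libraries were single cultures of PS10 cells, grouped into control and Gata6-AS by their titles, which say siRNA where the labels' treatment protocol says LNA. The authors' deposited expression values are RPKM per gene, per the file headers, and TopHat and mm9 are named in the submitters' processing notes. Counting tool, annotation, use of strand and treatment of multiply mapped reads were not stated there. The second deposited table lists 2099 genes with log2 values of each library, the log2 difference and a p-value (up to 0.0750) made by the authors with an unnamed test.

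From these values the difference of log2(RPKM + 1), Gata6-AS minus control, was computed (Python 3.11.15, pandas 2.3.3) over all genes reaching a mean of 1 RPKM, with a size rule of 1.5-fold and no test, since each group had 1 library. Depth came from 829 and 886 genes with a span under 3000 bp whose RPKM times length is a whole number of equal steps. For each gene the least transcript length (up to 30000 bp) that gives whole reads in both libraries, within a relative tolerance of 3e-07 plus 0.0002 reads, set the least reads and the exact intervals. These steps were also run on simulated data. There the depth step was given true transcript lengths, whereas here it used genomic spans, so the use of spans was not tested. Named were all members, and of other lists the genes past 1.5-fold, up to 4 per list. Of 197 list entries 7 were matched by RefSeq synonym on the same chromosome and 1 was not matched. Members, lists and rules were chosen with earlier results of these data known. Marker levels named singly, the RefSeq promoters and the length classes were chosen after values were seen, as were Cdkn2b and the related KMT2 genes. Alternatives are given in the closing section.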

Additional observations from a re-analysis of the deposited data

How the results depend on the processing

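The counts of members past 1.5-fold and 2-fold, each 0, and the median difference of -0.02 were recomputed with a pseudocount of 0.1 or 0.5 RPKM, without a filter, above a mean of 5 RPKM, centred on all genes, scaled to equal sums, and (chosen after seeing the data) centred within length classes. The counts stayed at 0 with 1 exception: with a pseudocount of 0.1 RPKM 1 member, Setd1b, was at least 1.5-fold lower. A looser rule, a difference of 0.32 on the log2 scale, gave 2 members higher and 2 lower, and centred on all genes it held Ash1l, Kdm4a and Setd1b. The median ran from -0.06 (centred on all genes) to 0.02 (above a mean of 5 RPKM), and moved by less than 0.05. That bound is the median distance from the centre to the bound of single members' counting intervals on the log2 scale, and does not measure the spread of a median. Centring on all genes turned the sign of 6 members (Cbx6, Kdm3a, Kdm4b, Ash2l, Ehmt1 and Suv39h1), each within 0.05 of 0, and scaling to equal sums that of 3 of them. The near-even split of 25 members above 0 and 26 below thus became 19 and 32 when centred, and 22 and 29 when scaled. No replicate could be left out with 1 library per group. No paired analysis was possible because each group has 1 library. Depth limits Phf19 and Cbx7, with counting intervals from 72.9% to 179% and from 78.7% to 185% of control.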
